A study of Mus musculus with 18 samples.

Results

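Chemokines are small secreted or membrane-bound proteins that draw leukocytes along a gradient, and chemokine receptors are the G protein-coupled receptors that read it. The rows of the liver count table whose symbols name a chemokine or a chemokine receptor numbered 72 of 55487 genes. They carried 66 symbols, since Ccl19, Ccl21a, Ccl21b and Ccl27a have several gene identifiers (10 rows together). Ligands made up 49 rows and receptors 23 rows. The selection used symbols alone and no measured value. In the liver, hepatocytes, sinusoidal endothelium, stellate cells and Kupffer cells make chemokines, while most of the receptors sit on incoming or resident leukocytes. A ligand is often shared by several receptors and a receptor by several ligands, and the atypical receptors bind ligands without the usual G protein signal. All values come from whole liver, where fewer cells of a type and less RNA per cell cannot be told apart.

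The livers were from 18 male C57BL/6J mice, with 1 library from each mouse and 6 mice in every group (CON-GFP, FPC-GFP, FPC-LIPA). Mice were bought at 7 weeks of age and after 1 week were injected with an adeno-associated virus (AAV). The vector carried GFP in both GFP groups and human LIPA, the gene of lysosomal acid lipase, in FPC-LIPA, so every mouse had received a virus. Both were built in 1 plasmid with TBG, a promoter active in hepatocytes. From 1 week after the injection, CON-GFP mice ate a purified control diet, and FPC-GFP and FPC-LIPA mice ate a high-fat diet with added fructose, palmitate and cholesterol (FPC) together with fructose-glucose water. Mice stayed on their diet for 16 weeks and were fasted for 4 h before the liver was taken. FPC-GFP was compared with CON-GFP to ask about the diet, and FPC-LIPA with FPC-GFP to ask about LIPA on that diet; a LIPA group on the control diet is not analysed here. The 6 FPC-GFP libraries enter both comparisons, so an FPC-GFP value that is low by chance lowers the first fold change and raises the second.

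Total counts ran from 16632146 to 37739301 per library. Summed hepatocyte markers (Alb, Ttr and 6 others) lay between 49911 and 98040 CPM (counts scaled to library size) in every library. Mouse Lipa was 336 ± 59.3 CPM (SD, n = 6) in FPC-GFP and 300 ± 44.8 CPM in FPC-LIPA, and since the table lists mouse genes only this does not check the LIPA label. FPC-LIPA 36, 37 and 39 stood apart: cytosolic ribosomal protein genes took 6.58, 8.21 and 8.29% of their counts, against 2.19 to 2.99% in FPC-LIPA 31, 33 and 34, 1.46 to 1.82% in FPC-GFP and 1.77 to 2.58% in CON-GFP. FPC-LIPA 37 also had the lowest total count and a Ptprc (CD45, the pan-leukocyte marker) level of 76.6 CPM, where the group median was 20.1. Its title gives the mouse as 37b and its S number is far above those of the other 17 libraries, which run from 55 to 80, and the labels do not say whether it is a repeat library.

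A gene was called differentially expressed (DE) where it changed at least 2-fold in either direction with adjusted p under 0.05 in edgeR's quasi-likelihood test, fitted and adjusted over all genes tested. CPM were scaled by TMM over the 18 libraries, the SD given with a CPM is over 6 mice, and SE is the standard error of a log2 fold change (log2FC). Of the 72 genes, 39 passed the filter on low counts in at least 1 comparison and 30 in both. The other 33 passed in neither. Of these, 10 had no count in any of the 18 libraries: Ccl26, Ccl21c, Ccl21d, Cxcl15, Cxcl17, both of the further Ccl27a copies, 1 Ccl21a copy and all but one of the Ccl21b copies. The remaining 23 were thinly counted. They were the receptors Ccr3, Ccr4, Ccr6, Ccr8, Ccr9, Ccr10, Cxcr1 and Cxcr2 and the ligands Ccl1, Ccl8, Ccl11, Ccl12, Ccl17, both Ccl19 rows, Ccl20, 1 row each of Ccl21a and Ccl21b, Ccl27b, Ccl28, Cxcl3, Cxcl5 and Ppbp, with at most 23 counts in any library (Ccl8 in FPC-LIPA 37, 1.83 CPM). For Ccl19, Ccl21a, Ccl21b and Ccl27a, reads can match several near-identical copies, so their counts are uncertain.

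Per kb of exons, Cxcl12 was the most abundant of these transcripts on the control diet, at 33.7 ± 5.07 CPM per kb. Cxcl12 is a homeostatic ligand that holds and recruits leukocytes through Cxcr4. Ccl9 followed at 11.4 ± 4.28 CPM per kb, then Ccl27a at 3.81 ± 0.615 and Ccl6 at 3.51 ± 1.24, and the next genes in the order were Cxcl1, Cxcl9 and Cxcl16. From Ccl27a to Cxcl16 each mean lay within 1 SD of its neighbour's. Receptors were far lower, with Cxcr4 the highest of them at 0.500 ± 0.202 CPM per kb. In FPC-GFP the first 3 places were held by Cxcl12 at 27.7 ± 6.29, Ccl9 at 9.25 ± 2.86 and Ccl6 at 6.47 ± 1.33 CPM per kb. In FPC-LIPA the mean of Ccl9, 49.1 ± 36.1 CPM per kb, was above that of Cxcl12, 25.4 ± 2.65, and Ccl6 reached 24.4 ± 13.9. The Cxcl12 mean lay within 1 SD of the Ccl9 mean there, and the highest Ccl9 levels were those of FPC-LIPA 36, 37 and 39.

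**Figure D1:**
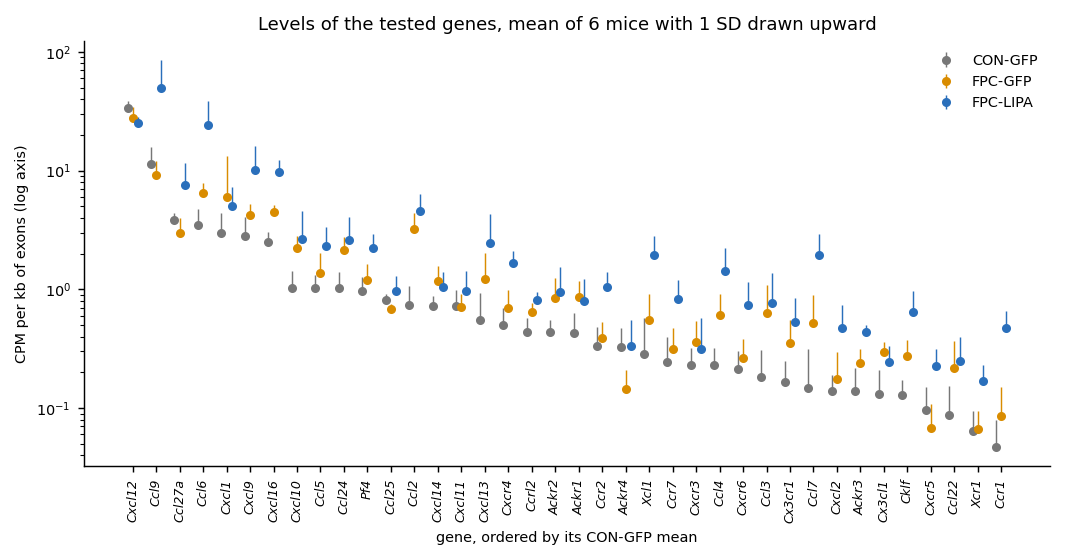
Mean level in CPM per kb of exons (log axis) of 38 of the 39 tested chemokine and receptor genes in CON-GFP (grey), FPC-GFP (orange) and FPC-LIPA (blue), 6 mice each, ordered by the CON-GFP mean, with 1 SD drawn upward. Cxcl12 is at 25.4 to 33.7 CPM per kb in the 3 groups, while Ccl9 and Ccl6 stand at 49.1 and 24.4 CPM per kb in FPC-LIPA and receptors lie mostly under 1.

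Cxcl12 itself was DE in neither comparison. Its level ran from 212 to 323 CPM in CON-GFP (median of 272), from 158 to 282 in FPC-GFP (median of 238) and from 181 to 236 in FPC-LIPA (median of 201), and the groups overlapped. Its log2FC was -0.29 (SE 0.16) with diet and -0.12 (SE 0.18) with LIPA, at edgeR adjusted p = 0.191 and 0.630. Summed over ligands without Cxcl12, the level was 91.5 ± 18.2 CPM in CON-GFP, 115 ± 14.2 in FPC-GFP and 327 ± 166 in FPC-LIPA. Cxcl12 took 75.0 ± 3.67% of all ligand CPM in CON-GFP, 65.6 ± 7.19% in FPC-GFP and 41.9 ± 12.3% in FPC-LIPA. Both FPC-LIPA values split by library: in FPC-LIPA 36, 37 and 39 the other ligands summed to 402 to 557 CPM and Cxcl12 took 27.2 to 34.3%, and in FPC-LIPA 31, 33 and 34 they summed to 159 to 205 CPM and Cxcl12 took 48.7 to 59.2%. Summed receptor CPM ran from 10.1 to 19.8 in CON-GFP, from 17.0 to 27.3 in FPC-GFP and from 31.8 to 51.1 in FPC-LIPA, and the FPC-LIPA libraries did not overlap with those of FPC-GFP.

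With the FPC diet, 5 of the 30 genes tested were DE and higher in FPC-GFP than in CON-GFP (Ccl2, Ccl24, Cxcl10, Cklf and Cx3cl1) and 1 was lower (Ackr4). Over all 14307 genes tested, 7.2% were DE, 4.76% higher and 2.44% lower. The log2FC was above 0 for 24 of the 30 genes, against 51.2% of all genes, and its median was 0.68 against 0.01. Genes low in CON-GFP, such as Cx3cl1 and Ackr3 (1 count each in CON-GFP 2), passed the filter with help from FPC-GFP, where they were higher. A log2FC above 0 for such genes, and the Cx3cl1 call, follow in part from the filter. At an adjusted p under 0.05 without a fold change minimum, 9 genes were higher and 1 was lower (12.9% and 10.9% of all genes, 23.8% together), among them Ccl6, Cxcl16 and Ackr2 in addition to the DE genes. The 6 FPC-GFP libraries were all above the 6 CON-GFP libraries for Ccl2 and Cxcl16 and all below for none, where 6.19% and 4.41% of all genes were separated so (10.6% together). All 5 genes that were DE and higher code for ligands, and no receptor with G protein signalling was DE.

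**Figure D2:**
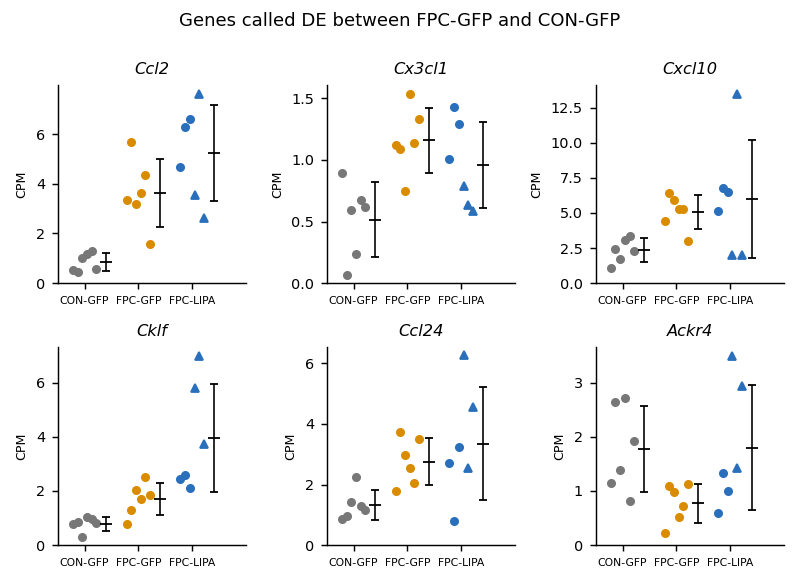
Level in CPM of the 6 genes that were DE between FPC-GFP and CON-GFP, 1 point per mouse (triangles are FPC-LIPA 36, 37 and 39), with the group mean and SD in black. Ccl2 is at 0.451 to 1.29 CPM in CON-GFP and 1.59 to 5.68 in FPC-GFP without overlap, while the other genes overlap between these groups.

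Ccl2, which calls monocytes from blood through Ccr2, had the largest difference of the 30. It ran from 0.451 to 1.29 CPM in CON-GFP (median of 0.797), from 1.59 to 5.68 in FPC-GFP (median of 3.49) and from 2.62 to 7.63 in FPC-LIPA (median of 5.50). Every mouse on the FPC diet, with or without LIPA, was above every mouse on the control diet. On the log2 scale the difference with diet was 2.07 (SE 0.32, edgeR adjusted p = 0.000657). It stayed DE with any 1 library left out, where the log2FC ran from 1.90 to 2.25. With LIPA the log2FC was 0.52 (SE 0.31, edgeR adjusted p = 0.213), which missed the threshold.

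Ccl24, a ligand of the eosinophil receptor Ccr3, ran from 0.856 to 2.25 CPM in CON-GFP (median of 1.23) and from 1.78 to 3.73 in FPC-GFP (median of 2.76). The groups overlapped through 1 high CON-GFP mouse. The fitted log2FC was 1.04 (SE 0.26, edgeR adjusted p = 0.0110). It fell under the fold change minimum without CON-GFP 1, 2 or 8 or FPC-GFP 12 or 20, where it ran from 0.93 to 1.00 at adjusted p from 0.0208 to 0.0279. In FPC-LIPA it ran from 0.790 to 6.27 CPM (median of 2.98), the widest range of the 3 groups, with a log2FC of 0.29 (SE 0.38) against FPC-GFP. Its receptor gene Ccr3 was among the genes too low to test. Ccl6, close to Ccl9 on chromosome 11, differed by 0.87 (SE 0.21, adjusted p = 0.00908) on the log2 scale with diet, below the fold change minimum. The remaining inflammatory CC ligands tested with diet were Ccl5, at 0.40 (SE 0.31) with 0.571 to 1.34 CPM in CON-GFP and 0.842 to 2.53 in FPC-GFP, and Ccl9, at -0.31 (SE 0.25), and neither passed.

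Cxcl10, Cxcl9 and Cxcl11 are interferon-induced ligands of Cxcr3, the receptor of activated T cells and NK cells, and lie next to each other on chromosome 5. Cxcl10 ran from 1.06 to 3.36 CPM in CON-GFP (median of 2.38) and from 2.97 to 6.40 in FPC-GFP (median of 5.29). Overlap came from the lowest FPC-GFP library, which lay below the highest 2 CON-GFP libraries. Its log2FC was 1.11 (SE 0.25, edgeR adjusted p = 0.00705), and without CON-GFP 1 it was 0.96 at adjusted p = 0.0105, below the fold change minimum. Cxcl9 differed by 0.58 (SE 0.25) and Cxcl11 by -0.02 (SE 0.28) on the log2 scale, and neither was DE. Cxcl11 ran from 1.02 to 3.89 CPM in CON-GFP, from 1.34 to 3.29 in FPC-GFP and from 1.92 to 6.22 in FPC-LIPA, and the groups overlapped. The level of Cxcl9 in CON-GFP 6, 15.7 CPM, was well above the 5.83 to 9.09 CPM of the other 5 CON-GFP mice. Cxcr3 itself stayed between 0.149 and 1.14 CPM in these 12 libraries (log2FC 0.69, SE 0.38, edgeR adjusted p = 0.197).

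With LIPA, Cxcl9 was the 1 gene of the trio that was DE. It ran from 6.80 to 16.3 CPM in FPC-GFP (median of 13.6) and from 10.7 to 63.9 in FPC-LIPA (median of 25.0), and FPC-LIPA 37 was the highest and FPC-LIPA 33 the only FPC-LIPA library inside the FPC-GFP range. Its log2FC was 1.26 (SE 0.34, edgeR adjusted p = 0.0239), and the call was lost without FPC-GFP 11, FPC-LIPA 36 or FPC-LIPA 37 (log2FC from 0.89 to 1.20, adjusted p from 0.0508 to 0.0549). Cxcl10 in FPC-LIPA ran from 2.01 to 13.5 CPM (median of 5.82), with FPC-LIPA 36 and 39 at 2.01 and 2.03 CPM and FPC-LIPA 37 at 13.5. Its log2FC against FPC-GFP was 0.23 (SE 0.39) and that of Cxcl11 was 0.44 (SE 0.32), neither of them DE. Whether the 3 genes differed from each other in their response was not tested. Cxcl11 is annotated as a polymorphic pseudogene in GENCODE M21 and shares 1582 exonic bases with Gm2673 on the opposite strand.

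The stretches before the starts of Cxcl9 and Cxcl10 are shown because these neighbouring genes differed in which comparison they were DE. They are 250 bases upstream of the transcription start, from RefSeq on GRCm38.p6, 5′ to 3′ on the strand of the gene (the minus strand), at chr5:92328080-92328329 and chr5:92348890-92349139. Capitals mark matches on either strand to GGGANTTCC (NF-kB type), a pair of GAAA with 2 bases of any kind between them (interferon response type) and GGAAGT (PU.1 type). These letter patterns were also searched, with TTGCNNAA (C/EBP type), in all 32817 promoters of the table, which holds 50 of the 66 symbols.
Cxcl9: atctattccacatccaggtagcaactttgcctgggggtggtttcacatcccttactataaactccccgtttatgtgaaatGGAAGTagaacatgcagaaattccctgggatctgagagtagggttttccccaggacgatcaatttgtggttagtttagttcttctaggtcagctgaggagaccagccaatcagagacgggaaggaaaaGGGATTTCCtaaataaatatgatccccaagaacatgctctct
Cxcl10: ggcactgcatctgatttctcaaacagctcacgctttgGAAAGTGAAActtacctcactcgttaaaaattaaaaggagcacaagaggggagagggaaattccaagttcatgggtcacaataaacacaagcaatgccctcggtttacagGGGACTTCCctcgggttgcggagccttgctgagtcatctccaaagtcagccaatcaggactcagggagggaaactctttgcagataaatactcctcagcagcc
Both hold the NF-kB type pattern, at 42 to 34 bases before the start in Cxcl9 and at 103 to 95 in Cxcl10, which 1.43% of all promoters hold. The interferon response pattern is present in Cxcl10, at 213 to 204 bases before the start, and in 2.97% of all promoters. The C/EBP type pattern has no match in either window (9.57% of all promoters hold it). The PU.1 type pattern, held by 19.7% of all promoters, is at 170 to 165 bases in Cxcl9, and in Cxcl10 it lies within the NF-kB match at 100 to 95. A match describes letters and is no evidence of binding.

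Of the membrane-bound and other ligands, Cx3cl1, the tethered ligand of Cx3cr1, ran from 0.0645 to 0.897 CPM in CON-GFP (median of 0.608) and from 0.746 to 1.54 in FPC-GFP (median of 1.13). The groups overlapped in 1 mouse each. Here the log2FC was 1.11 (SE 0.37, edgeR adjusted p = 0.0407). This call was the least steady of the diet calls: it was lost without CON-GFP 2, 3, 6 or 8 or FPC-GFP 11, 12, 16, 19 or 20, at adjusted p from 0.0480 to 0.0850 and log2FC from 0.92 to 1.16. Its receptor gene Cx3cr1, which marks patrolling monocytes, had a log2FC of 1.09 (SE 0.40, edgeR adjusted p = 0.0597), with 0.355 to 1.32 CPM in CON-GFP, 0.564 to 3.04 in FPC-GFP and 0.741 to 4.48 in FPC-LIPA. In FPC-LIPA Cx3cl1 lay between 0.587 and 1.43 CPM, a log2FC of -0.25 (SE 0.30) against FPC-GFP.

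Cklf, which codes for a chemokine-like factor, was the 1 gene that was DE in both comparisons. It ran from 0.299 to 1.03 CPM in CON-GFP (median of 0.827), from 0.779 to 2.52 in FPC-GFP (median of 1.77) and from 2.11 to 6.99 in FPC-LIPA (median of 3.17). The highest FPC-LIPA values were those of FPC-LIPA 36, 37 and 39, at 3.75 to 6.99 CPM, while FPC-LIPA 31, 33 and 34 were at 2.11 to 2.59 CPM and beside the highest FPC-GFP mice. On the log2 scale the difference with diet was 1.09 (SE 0.32, edgeR adjusted p = 0.0225), and without CON-GFP 3 or FPC-GFP 19 it was 0.92 to 0.94 at adjusted p from 0.0369 to 0.0594. With LIPA it was 1.21 (SE 0.35, edgeR adjusted p = 0.0303). The LIPA call was lost without any one of FPC-GFP 11, 12, 13, 16 and 20 and FPC-LIPA 36, 37 and 39, at log2FC from 0.97 to 1.27 and adjusted p from 0.0516 to 0.0765.

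Cxcl16, a membrane-bound ligand and scavenger receptor for oxidized lipids that binds Cxcr6, separated every pair of groups. It ran from 5.46 to 9.90 CPM in CON-GFP (median of 7.49), from 11.5 to 16.7 in FPC-GFP (median of 13.3) and from 20.9 to 42.4 in FPC-LIPA (median of 28.2). No library of a group overlapped with the next group. With diet the log2FC was 0.82 (SE 0.15, edgeR adjusted p = 0.00227), which is below the fold change minimum. With LIPA it was 1.13 (SE 0.19, edgeR adjusted p = 0.00954) and DE, and without FPC-LIPA 37 it was 0.98 at adjusted p = 0.0130. Without FPC-LIPA 36, 37 and 39 it was 0.84 at adjusted p = 0.0302. Cxcl16 shares 552 exonic bases with Zmynd15 on the opposite strand, whose level was 4.42 ± 1.49, 6.42 ± 1.28 and 8.12 ± 5.33 CPM in the 3 groups, and the strand setting of the counting is not given in the sources used here. The same limit holds for the DE genes Xcl1, Cxcr5 and Cxcl10. They share 98, 110 and 133 exonic bases with Gm20743, Bcl9l and Art3 on the opposite strand.

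Among the atypical receptors, which take up chemokines, Ackr4 was DE and lower with diet. It ran from 0.813 to 2.72 CPM in CON-GFP (median of 1.65), from 0.218 to 1.13 in FPC-GFP (median of 0.852) and from 0.599 to 3.50 in FPC-LIPA (median of 1.38). The groups overlapped through 1 CON-GFP mouse, CON-GFP 7 at 0.813 CPM. The fitted log2FC with diet was -1.19 (SE 0.38, edgeR adjusted p = 0.0351), and the call was lost without CON-GFP 2, 6 or 8 or FPC-GFP 11, 16 or 19 (log2FC from -1.18 to -0.99, adjusted p from 0.0522 to 0.0838). With LIPA it was 1.23 (SE 0.47, edgeR adjusted p = 0.0695), with the highest values in FPC-LIPA 36 and 39. Ackr4 shares 479 exonic bases with Acad11 on the opposite strand, which stood at 391 ± 31.5 CPM in CON-GFP, and reads of the overlap cannot be told apart without the strand setting.

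The other atypical receptors had log2FC above 0 with diet. Ackr2, which clears inflammatory CC ligands, ran from 0.728 to 1.75 CPM in CON-GFP and from 0.872 to 4.15 in FPC-GFP, a log2FC of 0.97 (SE 0.33, edgeR adjusted p = 0.0447) that passed on p alone. Ackr1, the erythroid and venular receptor, was at 0.96 (SE 0.34, adjusted p = 0.0502), Ackr3, which binds Cxcl12, at 0.73 (SE 0.38) and Ccrl2 at 0.51 (SE 0.24), and none of these 3 passed. Ackr1 ran from 0.285 to 1.08 CPM in CON-GFP, from 0.623 to 1.68 in FPC-GFP and from 0.396 to 1.80 in FPC-LIPA. Ccrl2 ran from 0.580 to 1.60 CPM in CON-GFP, from 1.25 to 2.00 in FPC-GFP and from 1.59 to 2.55 in FPC-LIPA. All of these groups overlapped with their neighbours. Ackr3, at 0.0645 to 0.828 CPM in CON-GFP, was higher in all 6 FPC-LIPA libraries, at 1.25 to 1.85 CPM, than in any FPC-GFP library, at 0.468 to 1.12 CPM, with a log2FC of 0.86 (SE 0.28, edgeR adjusted p = 0.0443) under the fold change minimum. Ackr2 ran from 1.22 to 6.02 CPM in FPC-LIPA. With LIPA the log2FC of Ackr1, Ackr2 and Ccrl2 were -0.09, 0.18 and 0.34, and none was DE.

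Of the further ligands tested with diet, none passed. Cxcl1, which attracts neutrophils through Cxcr2, had a log2FC of 1.02 (SE 0.55, edgeR adjusted p = 0.183), and its FPC-GFP mean of 11.3 ± 13.5 CPM rested on 38.3 CPM in FPC-GFP 11, with the other 5 mice at 3.84 to 9.15 CPM. The other groups were at 1.92 to 9.29 CPM (CON-GFP) and 4.04 to 15.8 (FPC-LIPA). Cxcl13, which leads B cells into follicles through Cxcr5, was at 1.12 (SE 0.48, adjusted p = 0.0973) and Cxcl14 at 0.67 (SE 0.24, adjusted p = 0.0554). Cxcl13 ran from 0.322 to 1.21 CPM in CON-GFP, from 0.542 to 2.68 in FPC-GFP and from 0.315 to 6.42 in FPC-LIPA, and Cxcl14 from 1.03 to 1.64, from 1.49 to 3.46 and from 1.19 to 2.68. Both had their narrowest range on the control diet. Pf4, carried by platelets, was at 0.29 (SE 0.28), with 0.485 to 1.10 CPM in CON-GFP, 0.592 to 1.42 in FPC-GFP and 0.820 to 2.33 in FPC-LIPA. Ccl25, a ligand of the gut-homing receptor Ccr9, was at -0.26 (SE 0.13), with 4.89 to 6.78 CPM in CON-GFP and 4.18 to 5.77 in FPC-GFP, and Ccl27a, a ligand of the skin-homing receptor Ccr10, at -0.34 (SE 0.20). The homeostatic and lymphoid ligands were the 1 group of ligands whose median log2FC with diet lay below 0, at -0.26 over 5 genes tested.

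Of the receptors with G protein signalling, 7 were tested with diet and none was DE. Ccr2 was at 0.22 (SE 0.33), Ccr7 at 0.32 (SE 0.47), Cxcr4 at 0.46 (SE 0.33), Cxcr6 at 0.28 (SE 0.39) and none of these passed. Ccr1, Cxcr5 and Xcr1 were too low in these 12 libraries to be tested.

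With LIPA on the FPC diet, 15 of the 39 genes tested were DE and higher and 0 were lower. Over all 14620 genes tested, 11.4% were DE, 10.3% higher and 1.11% lower. A log2FC above 0 was found for 33 of the 39 genes, against 52.3% of all genes, and the median was 0.95 against 0.04. However, 9 of the 39 (Ccl3, Ccl4, Ccl7, Ccl22, Ccr1, Cxcl2, Cxcr5, Xcl1 and Xcr1) were too low to be tested with diet and passed the filter here through FPC-LIPA, where they were higher, so a log2FC above 0 for all 9 follows in part from the filter. Of the 30 genes tested in both comparisons, 10 were DE and higher with LIPA, 24 had a log2FC above 0 and the median was 0.80. Ligands gave 8 of the 15 (Ccl9, Ccl6, Ccl7, Xcl1, Ccl27a, Cxcl9, Cklf and Cxcl16) and receptors 7 (Ccr1, Cxcr5, Cxcr6, Ccr2, Ccr7, Xcr1 and Cxcr4), of 24 ligands and 15 receptors tested. At an adjusted p under 0.05 without a fold change minimum there were 17, Ackr3 among them and none lower, and 14.4% of all genes were higher and 6.87% lower (21.2% together). The 2 groups of libraries did not overlap for Ccl6, Ccl7, Ccl9, Cxcl16 and Ackr3, all of them higher, where 3.81% of all genes were separated in this direction and 3.76% in the other (7.57% together).

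**Figure D3:**
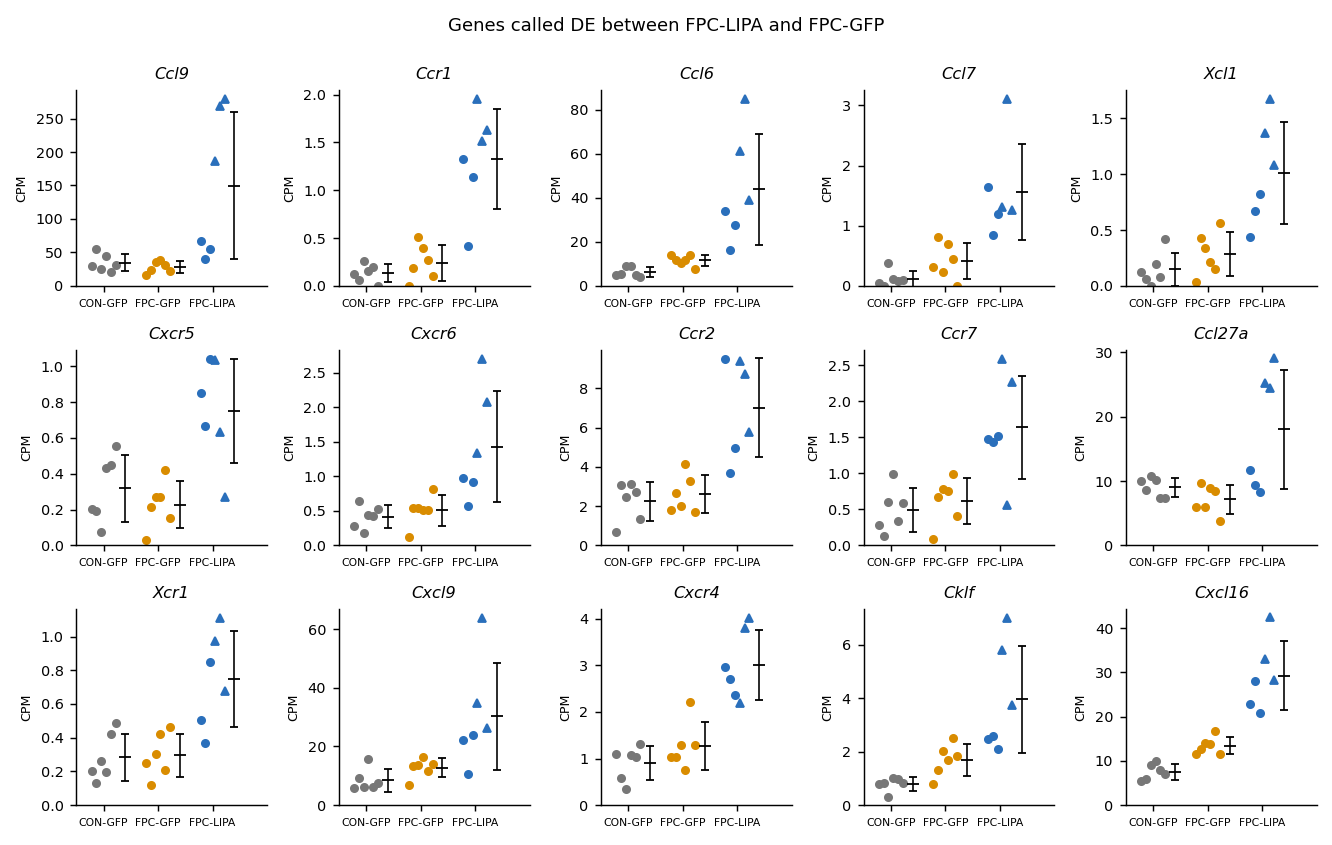
Level in CPM of the 15 genes that were DE between FPC-LIPA and FPC-GFP, 1 point per mouse, with the group mean and SD in black. Triangles are FPC-LIPA 36, 37 and 39, the libraries with the highest ribosomal protein share, and all 3 lie above FPC-LIPA 31, 33 and 34 for 9 of the 15 genes (Ccl9, Ccl6, Ccl27a, Cklf, Cxcl9, Cxcl16, Ccr1, Cxcr6 and Xcl1). The 15 were called with these 3 libraries in the fit. The share of all genes split in this way was not counted, so the 9 describe these genes alone.

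On the control diet the 7 receptors and the ligands Ccl7 and Xcl1 had few counts. The receptors ran from 0 to 0.261 CPM (Ccr1), 0.693 to 3.15 (Ccr2), 0.129 to 0.986 (Ccr7), 0.129 to 0.489 (Xcr1), 0.0746 to 0.554 (Cxcr5), 0.187 to 0.645 (Cxcr6) and 0.336 to 1.30 (Cxcr4) in CON-GFP. Among the ligands, Ccl7 was at 0 to 0.373 CPM and Xcl1 at 0 to 0.424 in CON-GFP.

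How far these calls rest on FPC-LIPA 36, 37 and 39 was read from a fit without them. Then 1 of the genes was DE, Ccl6, and 116 of all genes were. Cxcl9, Cklf, Cxcr6, Xcl1 and Xcr1 had log2FC of 0.59, 0.50, 0.70, 1.21 and 0.98 (edgeR adjusted p from 0.275 to 0.435), and Ccl7, Ccr7 and Cxcr5 had 1.50, 1.25 and 1.88 (edgeR adjusted p from 0.0884 to 0.196). In the libraries with S numbers from 55 to 68 in their labels, which leave out FPC-LIPA 37, FPC-GFP 20 and 2 CON-GFP libraries (1 and 2), Ccl6 was again the 1 gene that was DE with LIPA, with 96 of all genes. The same libraries gave Ccl2, Cxcl10, Ackr2 and Ccl4 with diet. Both fits hold fewer libraries. The median log2FC of the chemokine and receptor genes was 0.70 without FPC-LIPA 36, 37 and 39, against 0.01 over all genes, and 39 of 42 genes tested were above 0. With all 12 libraries 39 genes were tested. Genes low in FPC-GFP could again pass the filter through FPC-LIPA, so these signs follow in part from the filter. The share of all genes above 0 was not counted in this fit. With 1 library left out the number of DE chemokine and receptor genes was lowest, 6, when this was FPC-LIPA 36 and highest, 18, when it was FPC-LIPA 33. It was 8 without FPC-GFP 13 or FPC-LIPA 37, 9 without FPC-GFP 11 or FPC-LIPA 39, and 16 to 18 without FPC-LIPA 31, 33 or 34. The share of all genes that were DE moved too. It was 5.80% without FPC-LIPA 36, 17.8% without FPC-LIPA 33 and 11.4% with no library left out.

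**Figure D4:**
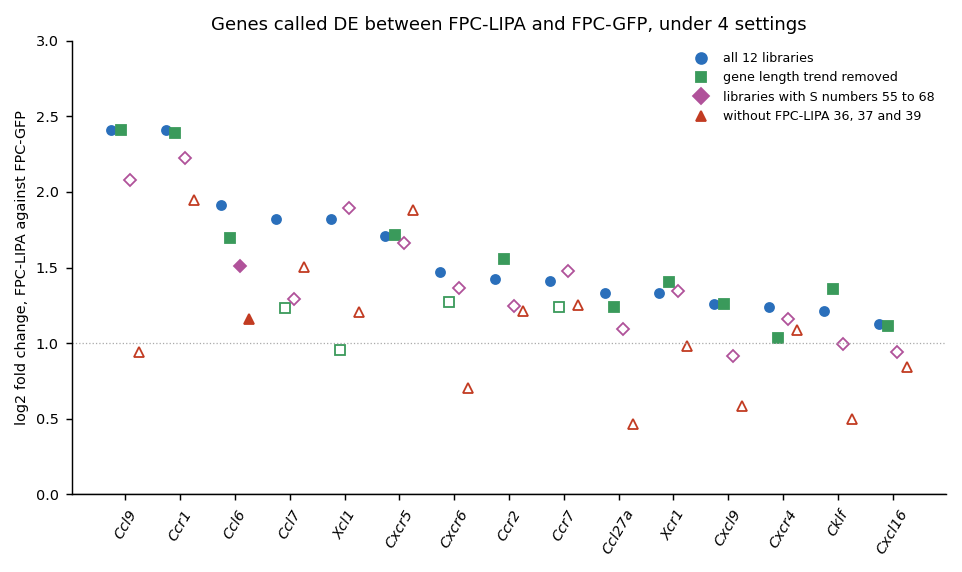
Log2FC, FPC-LIPA against FPC-GFP, of the 15 DE genes with all 12 libraries (blue circles), with the gene length trend removed (green squares), in libraries with S numbers 55 to 68 (purple diamonds) and without FPC-LIPA 36, 37 and 39 (red triangles). Filled marks are DE and open marks are not, and Ccl6 is the gene with 4 filled marks.

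Ccl9 and Ccl6, both ligands of Ccr1 that rodents use to draw myeloid cells, gave the highest levels. Ccl9 ran from 16.7 to 38.5 CPM in FPC-GFP (median of 27.9) and from 40.0 to 279 in FPC-LIPA (median of 127). FPC-LIPA 36, 37 and 39 were at 187, 269 and 279 CPM and FPC-LIPA 31, 33 and 34 at 40.0 to 67.1, all above FPC-GFP. Its log2FC was 2.41 (SE 0.46, edgeR adjusted p = 0.0111), and 2.12 to 2.61 with 1 library left out, DE each time. Without FPC-LIPA 36, 37 and 39 it was 0.95 at adjusted p = 0.0835. With diet Ccl9 ran from 21.5 to 55.6 CPM in CON-GFP and was not DE.

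Ccl6 ran from 4.24 to 9.19 CPM in CON-GFP (median of 5.21), from 7.69 to 14.0 in FPC-GFP (median of 11.9) and from 16.1 to 84.8 in FPC-LIPA (median of 36.5). All FPC-LIPA libraries were above all FPC-GFP libraries, with FPC-LIPA 37 and 36 the highest. The log2FC with LIPA was 1.91 (SE 0.33, edgeR adjusted p = 0.00966). It remained DE under every alternative run, including 1.16 (adjusted p = 0.0333) without FPC-LIPA 36, 37 and 39, 1.51 (adjusted p = 0.0426) in libraries with S numbers 55 to 68 and 1.69 (adjusted p = 0.0151) with the gene length trend removed.

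The starts of Ccl9 and Ccl6 lie within a short distance on chromosome 11, and the 250 bases before each are shown because both genes were DE and abundant with LIPA. They are from RefSeq on GRCm38.p6, 5′ to 3′ on the minus strand, at chr11:83593088-83593337 for Ccl6 and chr11:83578637-83578886 for Ccl9, with capitals for matches to the same 4 patterns.
Ccl6: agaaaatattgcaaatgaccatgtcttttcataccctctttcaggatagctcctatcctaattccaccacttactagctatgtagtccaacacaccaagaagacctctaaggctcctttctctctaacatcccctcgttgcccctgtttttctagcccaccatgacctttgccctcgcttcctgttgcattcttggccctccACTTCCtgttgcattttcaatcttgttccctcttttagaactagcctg
Ccl9: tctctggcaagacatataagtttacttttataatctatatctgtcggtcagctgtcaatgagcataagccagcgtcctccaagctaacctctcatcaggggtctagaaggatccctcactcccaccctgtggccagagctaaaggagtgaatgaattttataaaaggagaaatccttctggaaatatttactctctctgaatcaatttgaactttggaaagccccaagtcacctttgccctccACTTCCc
Each holds 1 match, the PU.1 type pattern on the opposite strand, at 48 to 43 bases before the start in Ccl6 and at 7 to 2 bases in Ccl9. The 2 stretches share a run of 13 bases that ends in this match (gccctccacttcc). Of the 59 chemokine and receptor promoters in the table, 19 hold this pattern. Of all 32817 promoters 6475 hold it (19.7%), a smaller share than among the 59, and this difference was not tested. The NF-kB, interferon response and C/EBP type patterns have no match in these windows.

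Ccl7, a monocyte ligand of Ccr1 and Ccr2, ran from 0 to 0.820 CPM in FPC-GFP (median of 0.381) and from 0.839 to 3.10 in FPC-LIPA (median of 1.29). The groups did not overlap, though at 0 to 27 counts per FPC-GFP library and 28 to 52 per FPC-LIPA library, and FPC-LIPA 37 at 3.10 CPM stood well above the next mouse at 1.64. On the log2 scale the difference was 1.82 (SE 0.53, edgeR adjusted p = 0.0305). It was lost without any one of FPC-GFP 11, 13 and 19 and FPC-LIPA 36, 37 and 39 (1.52 to 1.86, adjusted p from 0.0543 to 0.0691) and with the gene length trend removed (1.23, adjusted p = 0.0840). Its neighbour Ccl2 on chromosome 11 was DE with diet and not with LIPA. Of the other inflammatory CC ligands, Ccl4 was at 1.20 (SE 0.45, adjusted p = 0.0662), Ccl5 at 0.74 (SE 0.36, 1.10 to 3.91 CPM in FPC-LIPA) and Ccl3 at 0.26 (SE 0.58), and none passed.

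Xcl1, made by NK and T cells, ran from 0.0312 to 0.564 CPM in FPC-GFP (median of 0.275, 1 to 14 counts) and from 0.441 to 1.67 in FPC-LIPA (median of 0.952, 14 to 45 counts). The groups overlapped in their outermost mice. The fitted log2FC was 1.82 (SE 0.51, edgeR adjusted p = 0.0271), and the call was lost without any one of FPC-GFP 13, 16 and 19 and FPC-LIPA 36, 37 and 39 (1.63 to 1.88, adjusted p from 0.0513 to 0.0630) and with the gene length trend removed (0.95, adjusted p = 0.149). Xcr1 is its receptor on cross-presenting dendritic cells. It ran from 0.121 to 0.462 CPM in FPC-GFP (4 to 14 counts) and from 0.370 to 1.11 in FPC-LIPA (14 to 32 counts). Its log2FC was 1.33 (SE 0.40, edgeR adjusted p = 0.0336), lost without any one of FPC-GFP 11, 12, 13 and 19 and FPC-LIPA 36, 37 and 39 (1.17 to 1.34, adjusted p from 0.0620 to 0.0758).

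Ccl27a (ENSMUSG00000073888) split the FPC-LIPA libraries, as Ccl9 did. It ran from 3.85 to 9.65 CPM in FPC-GFP (median of 7.22), and in FPC-LIPA 36, 37 and 39 from 24.5 to 29.1 CPM, while FPC-LIPA 31, 33 and 34 were at 8.32 to 11.8 and beside FPC-GFP and the CON-GFP range of 7.33 to 10.8. The log2FC with LIPA was 1.33 (SE 0.34, edgeR adjusted p = 0.0200), 1.13 to 1.20 at adjusted p = 0.0501 and 0.0502 without FPC-LIPA 36 or 39, and 0.46 at adjusted p = 0.345 without all 3. Il11ra1, which overlaps it by 8 exonic bases on the opposite strand, differed by 0.62 (SE 0.20). Ccl25 showed the same split, at 8.92 to 9.85 CPM in those 3 libraries and 4.42 to 5.99 in the others, and was not DE (0.52, SE 0.22, adjusted p = 0.0981). Cxcl13 at 1.00 (SE 0.57), Ccl22 at 0.22 (SE 0.52), Cxcl14 at -0.14 (SE 0.30), Cxcl1 at -0.27 (SE 0.54), Cxcl2 at 1.38 (SE 0.56, adjusted p = 0.0813) and Pf4 at 0.88 (SE 0.32, adjusted p = 0.0607) were not DE either.

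Among the CC receptors, 3 of the 4 tested were DE and higher with LIPA (Ccr1, Ccr2 and Ccr7), against 10.3% of all genes. Ccr1 passed the filter with LIPA alone, so this count follows in part from the filter. Ccr1, the receptor of Ccl9, Ccl6 and Ccl7 on myeloid cells, ran from 0 to 0.508 CPM in FPC-GFP (median of 0.226, 0 to 15 counts) and from 0.420 to 1.95 in FPC-LIPA (median of 1.42, 17 to 64 counts). FPC-LIPA 33 alone lay in the FPC-GFP range. Its log2FC was 2.41 (SE 0.57, edgeR adjusted p = 0.0176), and it was DE with any 1 library left out (2.14 to 2.74). Without FPC-LIPA 36, 37 and 39 it was 1.95 at adjusted p = 0.145.

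Ccr2, the Ccl2 and Ccl7 receptor of inflammatory monocytes, ran from 1.69 to 4.13 CPM in FPC-GFP (median of 2.35) and from 3.70 to 9.49 in FPC-LIPA (median of 7.26). FPC-LIPA 31 and 36 were the highest and FPC-LIPA 33 lay inside the FPC-GFP range. Here the log2FC was 1.42 (SE 0.30, edgeR adjusted p = 0.0136), DE with any 1 library left out (1.30 to 1.60), and 1.21 at adjusted p = 0.0936 without FPC-LIPA 36, 37 and 39.

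Ccr7, which takes dendritic cells and naive T cells to lymph nodes, ran from 0.0935 to 0.991 CPM in FPC-GFP (median of 0.710) and from 0.556 to 2.59 in FPC-LIPA (median of 1.50). FPC-LIPA 37 was the lowest of its group here, at 0.556 CPM, and FPC-LIPA 36 the highest. On the log2 scale the difference was 1.41 (SE 0.45, edgeR adjusted p = 0.0400). The call was lost without any one of FPC-GFP 11, 12, 13, 16 and 20 and FPC-LIPA 36 and 39 (1.18 to 1.48, adjusted p from 0.0590 to 0.0951) and with the gene length trend removed (1.24, adjusted p = 0.0546). Its ligand genes Ccl19 and Ccl21a had at most 4 counts in any library.

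Of the CXC, XC and CX3C receptors, 4 of 6 tested were DE and higher with LIPA, against 10.3% of all genes. Cxcr5 and Xcr1 passed the filter with LIPA alone, so this count too follows in part from the filter. Cxcr4, the receptor of Cxcl12 on most leukocytes, ran from 0.753 to 2.22 CPM in FPC-GFP (median of 1.16) and from 2.19 to 4.02 in FPC-LIPA (median of 2.84). The overlap came from FPC-GFP 19, at 2.22 CPM, with the other 5 FPC-GFP mice at 0.753 to 1.29 CPM. The fitted log2FC was 1.24 (SE 0.29, edgeR adjusted p = 0.0167), DE with any 1 library left out (1.13 to 1.48) and 1.08 at adjusted p = 0.107 without FPC-LIPA 36, 37 and 39. FPC-LIPA 36 was the lowest FPC-LIPA library for this gene.

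Cxcr6, the Cxcl16 receptor of liver-resident T and NKT cells, ran from 0.125 to 0.821 CPM in FPC-GFP (median of 0.527) and from 0.568 to 2.70 in FPC-LIPA (median of 1.16). Its log2FC of 1.47 (SE 0.45, edgeR adjusted p = 0.0346) was DE, and the call was lost without any one of FPC-GFP 11, 12, 13, 16 and 19 and FPC-LIPA 36, 37 and 39 (1.19 to 1.49, adjusted p from 0.0604 to 0.0817) and with the gene length trend removed (1.27, adjusted p = 0.0529). FPC-LIPA 37 and 39 held its highest values. Cxcr5, which brings B cells to Cxcl13, ran from 0.0312 to 0.420 CPM in FPC-GFP (median of 0.242, 1 to 14 counts) and from 0.271 to 1.04 in FPC-LIPA (median of 0.759). Its log2FC was 1.71 (SE 0.47, edgeR adjusted p = 0.0256), lost without FPC-LIPA 36 or any one of FPC-GFP 12, 13 and 20 (1.59 to 1.76, adjusted p from 0.0503 to 0.0591). Its lowest FPC-LIPA values were those of FPC-LIPA 39 and 37. Cx3cr1 at 0.58 (SE 0.45) and Cxcr3 at -0.22 (SE 0.62) were not DE.

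**Figure D5:**
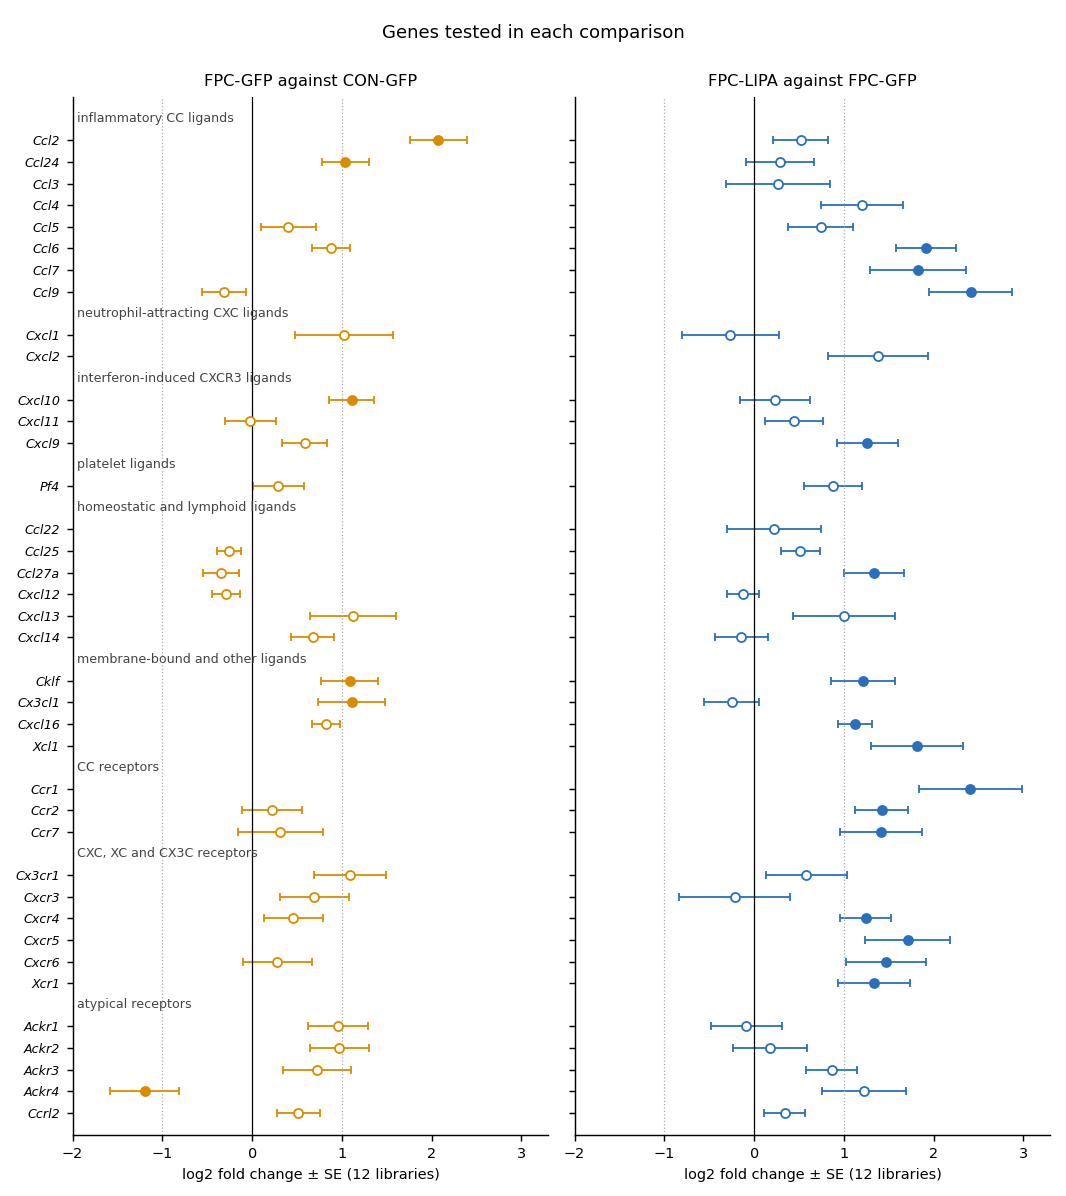
Log2FC ± SE of the same 38 chemokine and receptor genes, where tested, by role, for FPC-GFP against CON-GFP (left) and FPC-LIPA against FPC-GFP (right), which share the FPC-GFP libraries. Filled points are DE and dotted lines mark a 2-fold change; Ccl2, Cxcl10, Ccl24, Cx3cl1 and Ackr4 are filled on the left alone, Ackr4 below 0, Cklf on both sides, and 14 further genes on the right alone.

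Side by side, the 2 comparisons shared 1 DE gene, Cklf, of the 6 with diet and the 15 with LIPA. Ccl2, Cxcl10, Ccl24 and Cx3cl1 had log2FC of 2.07, 1.11, 1.04 and 1.11 with diet and 0.52, 0.23, 0.29 and -0.25 with LIPA. Ccl9, Ccl6 and Cxcl9 had -0.31, 0.87 and 0.58 with diet and 2.41, 1.91 and 1.26 with LIPA. Whether a gene differed between the comparisons was not tested. By known ligand and receptor pairs, both genes were DE with LIPA for Ccl9 and Ccl6 with Ccr1, Ccl7 with Ccr1 and Ccr2, Cxcl16 with Cxcr6, and Xcl1 with Xcr1. Of all single genes, 10.3% were DE and higher with LIPA. Ccl7, Ccr1, Xcl1 and Xcr1 passed the filter with LIPA alone, so every pair here but Cxcl16 with Cxcr6 follows in part from the filter. The receptor was DE and the ligand tested but not DE for Ccr2 with Ccl2, Cxcr4 with Cxcl12 and Cxcr5 with Cxcl13. The reverse held for Cxcl9 with Cxcr3. Ccr7 and Ccl27a were DE, but their partners Ccl19, Ccl21a and Ccr10 were too low to test, so these pairs could not be judged. With diet no pair was DE on both sides, but Ccr1, Ccl7, Xcl1, Xcr1 and Cxcr5 were too low to be tested there. Of the pairs DE on both sides with LIPA, Cxcl16 with Cxcr6 alone was tested on both sides with diet, so the others could not be judged.

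Several of these genes stand in clusters. On chromosome 9 (GRCm38), Cxcr6, Xcr1, Ccr1, Ccr3 and Ccr2 lie between 123806475 and 124113557, and the log2FC with LIPA was 1.47 for Cxcr6, 1.33 for Xcr1, 2.41 for Ccr1 and 1.42 for Ccr2, with Ccr3 too low to test. On chromosome 11, Ccl5, Ccl9, Ccl6, Ccl3 and Ccl4 lie between 83525778 and 83664683 with 0.74, 2.41, 1.91, 0.26 and 1.20, and Ccl2 and Ccl7 between 82035571 and 82047525 with 0.52 and 1.82. In the chromosome 11 clusters 2 of 5 (Ccl9 and Ccl6) and 1 of 2 (Ccl7) were DE, where 11.4% of all genes were (10.3% higher). Ccl3, Ccl4, Ccl7, Ccr1 and Xcr1 passed the filter with LIPA alone, so the values in these clusters follow in part from the filter.

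Gene length moved with the LIPA comparison as a whole. Genes with under 1 kb of exons had a median log2FC of 0.83 and 34.4% of them were DE and higher, and the medians were 0.34, 0.06 and -0.09 in genes of 1 to 2, 2 to 4 and over 4 kb. The chemokine and receptor genes in these 4 classes had medians of 1.04, 0.52, 0.99 and 1.08. With the trend on gene length taken out of each library, 12 were DE with LIPA, 11 of them among the 15, with Ccl7, Ccr7, Cxcr6 and Xcl1 lost and 1 gene gained. Their median was then 0.71 against 0.03 over all genes.

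Genes that carry or feed the chemokine response were counted from lists chosen with earlier results of these data known. In the signalling list (G proteins, arrestins, kinases and Rac and Rap regulators behind the receptors), 10 of 40 tested were DE and higher with diet and 0 lower, with a median log2FC of 0.65. Of all genes, 4.76% were DE and higher with diet. The 10 included Rac2, the leukocyte Rac, from 4.44 ± 1.60 to 11.9 ± 3.18 CPM, and Elmo1, a Rac activator, from 1.12 ± 0.380 to 3.44 ± 1.71. With LIPA 6 of 41 were DE and higher (median of 0.30), which is close to the share of all genes, 10.3%. Among the 6 were Rgs1, Rgs2, Rgs10 and Rgs19, which switch off receptor-coupled G proteins. Rgs1 went from 3.34 ± 2.46 to 9.27 ± 2.51 CPM (log2FC 1.48, SE 0.38, edgeR adjusted p = 0.0214). Rap1b, a GTPase of integrin activation, went from 46.1 ± 6.26 to 210 ± 179 CPM, with 241 to 521 CPM in FPC-LIPA 36, 37 and 39 and 59.6 to 81.5 in the other 3.

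Of 19 tested inducers of chemokine genes (cytokines, Toll-like receptors and NF-kB and interferon factors), Il1b was DE and higher with diet, from 1.95 ± 0.992 to 4.80 ± 2.80 CPM, and the median of the list was 0.55. With LIPA, Ltb, Tlr4 and Tlr7 were DE and higher and the median was 0.05. Ifng and Il17a had no count in FPC-LIPA. Of 20 leukocyte adhesion genes, 7 were DE and higher with diet (median of 0.79), led by Itgb2 from 4.16 ± 1.04 to 11.6 ± 2.99 CPM and Icam1 from 8.51 ± 2.67 to 20.2 ± 3.96. With LIPA 5 of 20 were DE and higher (among them Vcam1, Itgam, Itgax and Cd44, median 0.38). The share of all genes DE and higher was 4.76% with diet and 10.3% with LIPA.

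Markers of leukocytes moved in the same comparisons. With diet, 8 of 9 tested monocyte and macrophage markers and 6 of 7 Kupffer cell markers were DE and higher (medians 1.47 and 1.11), beside Ccl2, Ccl24 and Cxcl10. The summed level of the monocyte and macrophage list ran from 58.1 to 131 CPM in CON-GFP, from 167 to 420 in FPC-GFP and from 469 to 928 in FPC-LIPA, and that of the Kupffer list from 255 to 415, 420 to 594 and 441 to 882. With diet no marker of neutrophils (3 tested), B cells (7), NK cells (2), dendritic cells (7) or platelets (1) was DE, and 1 of 5 T cell markers, Cd4, was lower.

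With LIPA, 4 of 10 monocyte and macrophage markers were DE and higher (median log2FC of 1.08). Among them was Lyz2, from 136 ± 67.4 to 500 ± 155 CPM (517 to 698 in FPC-LIPA 36, 37 and 39 and 360 to 381 in the other 3). Of 7 Kupffer markers, 0 were DE and higher and C6 was DE and lower. The median log2FC of the Kupffer list was 0.66, with 6 of 7 above 0. Without a fold change minimum, 3 Kupffer markers were higher at edgeR adjusted p under 0.05. Beside the receptor calls, 4 of 9 B cell markers, 3 of 5 NK cell markers, 3 of 4 neutrophil markers, 3 of 8 dendritic cell markers and 1 of 6 T cell markers were DE and higher, where 10.3% of all genes were. Fewer of these markers passed the filter with diet (7 B cell, 2 NK cell, 3 neutrophil, 7 dendritic cell and 5 T cell). The counts with LIPA therefore follow in part from the filter, as for the chemokine genes. Summed levels in FPC-GFP and FPC-LIPA ran from 8.95 to 26.8 and from 18.1 to 51.7 CPM for the B cell list, from 2.06 to 5.05 and from 5.09 to 23.1 for the NK list (14.5 to 23.1 in FPC-LIPA 36, 37 and 39, and 5.09 to 9.27 in the other 3), from 3.02 to 6.19 and from 8.39 to 21.8 for the neutrophil list, from 226 to 279 and from 229 to 313 for the dendritic list and from 2.68 to 5.55 and from 4.79 to 11.4 for the T cell list. Of the neutrophil markers, S100a8 and S100a9 were DE while Ly6g had no count in FPC-LIPA. Platelet markers were near 0 apart from Itga2b, the 1 tested and not DE, and Gp1bb had no count in FPC-LIPA. Ptprc went from 8.87 ± 2.37 to 28.2 ± 23.9 CPM (log2FC 1.67, SE 0.38, edgeR adjusted p = 0.0159), with FPC-LIPA 37 at 76.6 and the other 5 at 14.5 to 22.4 CPM. Of the lists for resident cells, 0 of 10 sinusoidal endothelial, 1 of 10 stellate, 0 of 6 cholangiocyte and 1 of 8 hepatocyte markers were DE and higher with LIPA, and 1, 2, 0 and 0 with diet, where the hepatocyte marker Tat was lower. The part of leukocyte number, of ribosomal protein share and of gene length in the chemokine results was not tested.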

How the data were processed

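The authors trimmed 150 bp paired reads of liver RNA with Trimmomatic 0.33, mapped them with HISAT2 2.1.0 (GRCm38) and used featureCounts to count per gene, and the deposited values are these raw counts per gene. Strand setting, annotation version and multi-mapped reads are not given in the sources used here, and both a stranded and an unstranded kit are named. Groups and mouse numbers came from the labels, and 5 count columns that match no sample analysed here were not used. Chemokine and receptor genes were found by symbol. In R 4.3.3, each comparison's 12 libraries were filtered with filterByExpr, scaled by TMM and tested over all genes with edgeR 4.0.16 (glmQLFit, glmQLFTest, Benjamini-Hochberg), and the code was tested on simulated data. SE is the log2 fold change divided by the root of F. No intervals from counting were computed, and p-values measure the spread between these mice. Exon lengths and positions came from GENCODE M21 (GRCm38). Tested genes were named apart from 1 that is not reported here, and genes DE or of at least 1 CPM were given by group. The genes, lists and tests were chosen with earlier results of these data known, and the promoter patterns after the genes. Alternatives were other scalings, DESeq2 1.42.0, edgeR's exact test, other filters, all 18 libraries in one fit, S numbers 55 to 68, each library left out, FPC-LIPA 36, 37 and 39 left out, and each library's length trend removed (lowess, span 0.3). Tables were made with pandas 2.3.3 and numpy 2.4.6 in Python 3.11.15, and plots with matplotlib 3.10.9.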

Additional observations from a re-analysis of the deposited data

Results flagged for a closer look

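In 72 groups of 6 mice (tested genes with a mean of at least 1 CPM), 4 single mice lay far from the other 5 of their group by Dixon's test at the 95% level, a test that flags about 1 in 20 groups by chance. Cxcl1, a neutrophil attractant, was at 38.3 CPM in FPC-GFP 11, and the next mouse was at 9.15. Ccl7 was at 3.10 CPM in FPC-LIPA 37, against 1.64 in the next mouse. Cxcl9 was at 15.7 CPM in CON-GFP 6, where the others reached 9.09. Cxcr4 was at 2.22 CPM in FPC-GFP 19, and the next mouse was at 1.29.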

How the results depend on the processing

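Ccl2 with diet and Ccl6 with LIPA were DE under every alternative run, with log2 fold changes of 1.90 to 2.25 and 1.16 to 2.08. No called gene changed direction. Genes not called in either fit changed sign as follows. With diet, Cxcl11 (-0.02) was at 0.16 with library size alone and -0.19 to 0.12 with 1 library left out. With LIPA and 1 library left out, Ackr1 (-0.09) ran from -0.28 to 0.090, Ackr2 (0.18) from -0.16 to 0.34, Ccl24 (0.29) from -0.00570 to 0.50, Ccl3 (0.26) from -0.11 to 0.63, Cxcl1 (-0.27) from -0.49 to 0.67, Cxcl10 (0.23) from -0.17 to 0.41, Cxcl14 (-0.14) from -0.27 to 0.044 and Cxcr3 (-0.22) from -0.76 to 0.050. Without FPC-LIPA 36, 37 and 39, Ackr1, Ccl24, Cx3cl1, Cxcl14 and Cxcr3 were at 0.46, -0.29, 0.11, 0.21 and 0.12. With the length trend removed, Ccl24, Ccl3 and Cxcl12 were at -0.15, -0.11 and 0.018, and in libraries with S numbers 55 to 68 Cxcl10 was at -0.28. With diet, 6 genes were DE, and 12 (0 lower) with library size alone in place of TMM, which moved the median of all genes from 0.01 to 0.21. There were 10 with no fold change minimum and 1 (Ccl2) with all 18 libraries in one fit, which shares 1 estimate of spread over the groups. With 1 library left out there were 3 to 7, with 3 without CON-GFP 2 or FPC-GFP 19. With LIPA, 15 genes were DE, and 8 with library size alone (median of all genes -0.09), 9 with at least 1 CPM in 6 libraries, where 28 genes were tested, 1 in libraries with S numbers 55 to 68, 1 without FPC-LIPA 36, 37 and 39, and 6 to 18 with 1 library left out (6 without FPC-LIPA 36, 8 without FPC-GFP 13 or FPC-LIPA 37, 9 without FPC-GFP 11 or FPC-LIPA 39). Other tests, scalings and filters gave 5 to 7 with diet and 12 to 18 with LIPA, and libraries with S numbers 55 to 68 gave 4 with diet. Of 623 values of single genes with diet, 34 lost and 22 gained a call, and of 847 with LIPA, 94 and 17; apart from what was left out, the cause was not tested. No paired analysis was possible because the groups share no mouse numbers. Depth limits Xcl1, Xcr1, Cxcr5 and Ccr1, which had at most 14, 14, 14 and 15 counts in any FPC-GFP library.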
